A study of Caenorhabditis elegans with 8 samples.

Results

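Guanylyl cyclases make the second messenger cGMP from GTP, and in the nematode Caenorhabditis elegans most of them are transmembrane receptors of sensory neurons. The 36 genes described here were chosen by name among the 46916 genes of the deposited table: every gene whose symbol is gcy followed by a number, plus odr-1 and daf-11, which encode receptor cyclases, and tax-2 and tax-4, which encode subunits of a cGMP-gated cation channel. Of the 36, 27 encode receptor-type cyclases, 7 (gcy-31 to gcy-37) encode soluble cyclases and 2 encode channel subunits, so the name sensory receptor guanylyl cyclase covers only the first 27. All 36 identifiers were found. The identifier of gcy-2 is a pseudogene that the Ensembl annotation leaves without a name, and it was named through the RefSeq gene at the same coordinates.

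In sensory cilia, receptor cyclases respond to odours, salts, temperature or carbon dioxide, and the cGMP they make opens the TAX-2/TAX-4 channel and acts on the cGMP-dependent kinase EGL-4. Soluble cyclases carry a heme group that binds oxygen and work in the neurons that sense oxygen. Many members are used by a single pair of sensory neurons, so their transcripts are expected to be rare in the RNA of a whole larva.

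The study immunoprecipitated ADR-1, a member of the ADAR family that binds double-stranded RNA, and sequenced the RNA that came with it (RIP-seq), from hatch-synchronised, UV crosslinked L1 larvae. FLAG-tagged ADR-1 was expressed from the rab-3 promoter, which drives expression throughout the nervous system, on an extrachromosomal array in animals whose own adr-1 was deleted, in both strains alike. The control strain HAH25 (neural adr-1;adr-1(-)) kept adr-2, which encodes the editing enzyme ADR-2, and the strain HAH26 (neural adr-1;adr-1(-);adr-2(-)) lacked it. RNA of the immunoprecipitate (IP) and of the lysate before it (input, from the whole animal) was sequenced in 2 biological replicates of each strain, which gave 8 libraries in 4 groups. The labels give no strain without the tagged protein, so the level that untagged beads would hold was not measured here.

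Values are the authors' read counts divided by a size factor of each library, called units below, and whole reads were recovered from them. The inputs held 2595322 to 2969936 reads and the IPs 20950852 to 79185087, a 30.5-fold range. A single read stood for 3.01 and 2.63 units in libraries of control input and for 6.40 and 8.91 in those of adr-2(-) input, against 0.242 and 0.185 units for control IP and 0.151 and 0.324 for adr-2(-) IP. Ribosomal RNA genes took 14.3% (adr-2(-) IP replicate 2) to 50.6% (adr-2(-) IP replicate 1) of the reads. All 19 markers of neurons in general passed the filter on low values, and their summed level was 9054 to 9334 units in the 4 inputs and 11702 to 24544 units in the 4 IPs. Markers of the intestine stood the other way round, from 78538 to 232321 units in the inputs to 10221 to 33485 units in the IPs. Markers of glia summed to 954 to 1715 units in the inputs and 1902 to 4484 in the IPs. The sums for epidermis (5531 to 11466 and 8677 to 21277 units) and muscle (21208 to 24528 and 15996 to 76865 units) overlapped between inputs and IPs. Replicate IPs correlated at r = 0.814 in control and 0.872 in adr-2(-), whereas replicate 1 of the control IPs and replicate 1 of the adr-2(-) IPs gave 0.988 (across 13061 genes, which are not independent replicates). The control IP replicate 2 correlated at 0.881 and 0.875 with the control inputs, above its correlation with the other IP of its own group.

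In 222 genes the mean that the authors deposited differed from the mean of the 8 listed values, and 203 of these were listed at 0 in both control IPs. The gene gcy-18 was among them, with 0 units in both control IPs. Its 8 listed values sum to 334.3 units, whereas 8 times its deposited mean is 546.5 units, and which of its values are affected was not tested. The gene gcy-1 was the other affected member, with a sum of 9.89 units against 847 from its deposited mean. Every value of these rows is given as listed, and results that rest on gcy-18 are also given without it.

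Detection was compared first. A gene was counted as detected in a group when both of its libraries held at least 3 reads. Among control libraries the inputs detected 23 of the 36 genes (63.9%) and the IPs 33 (91.7%). In the adr-2(-) strain the inputs detected 11 genes (30.6%) and the IPs 35 (97.2%). Over all 19963 protein-coding genes the same rule detected 60.9% and 77.3% in control and 52.6% and 79.2% in adr-2(-), so the 36 genes stood close to protein-coding genes at large in the control inputs, below them in the adr-2(-) inputs and above them in both IPs. The pseudogene gcy-2 was the single member undetected in adr-2(-) IPs, and among control IPs gcy-1, gcy-2 and gcy-18 were not detected.

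**Figure D1:**
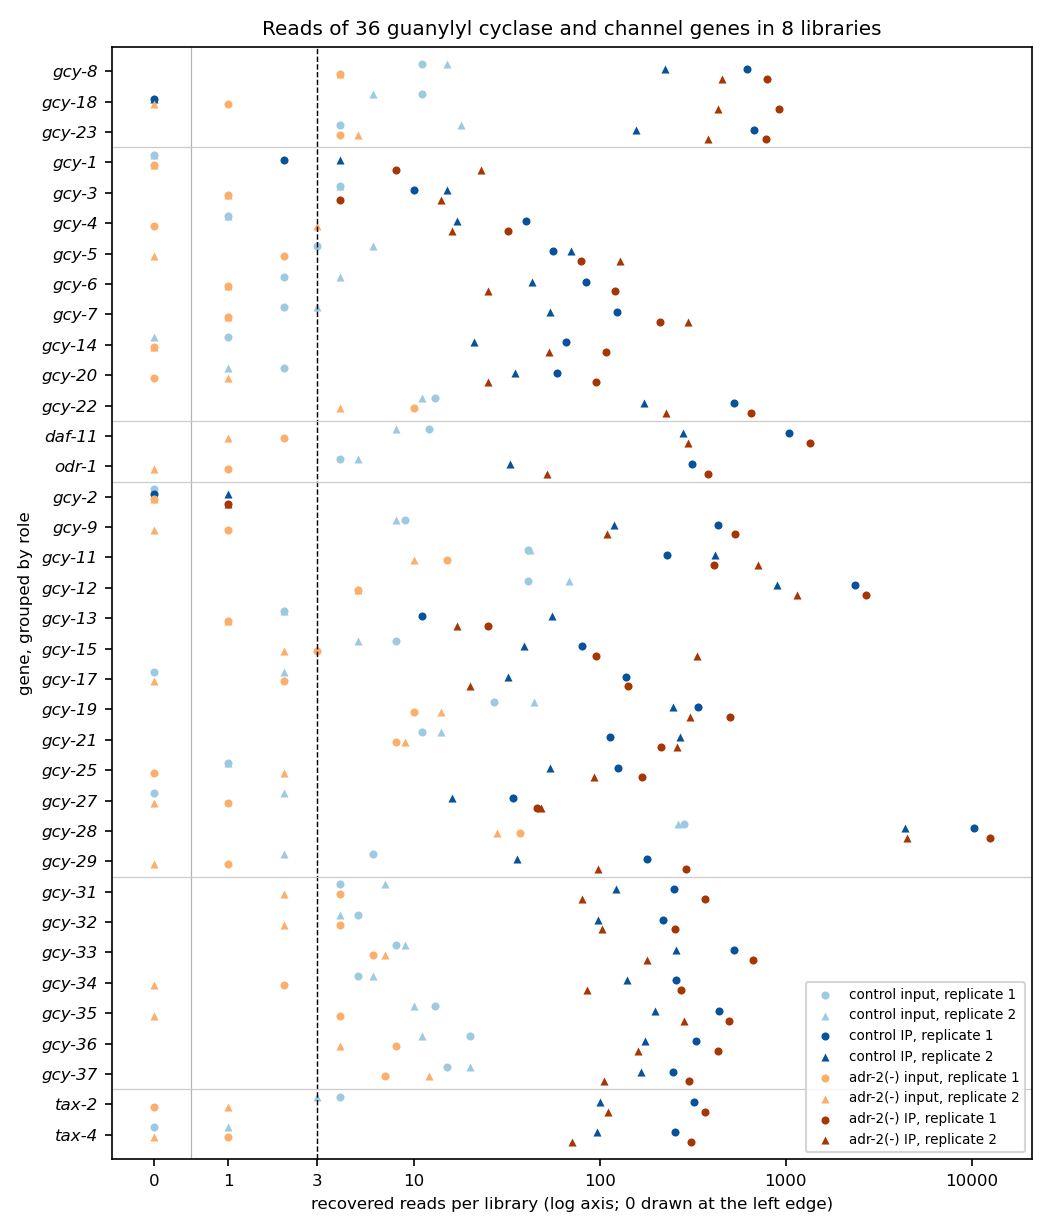
Recovered reads of each of the 36 genes in each of the 8 libraries (log axis, with 0 drawn at the left edge and the dashed line at 3 reads), grouped by role from top to bottom: AFD, ASE, daf-11 and odr-1, other receptor-type, soluble, channel. Inputs (pale) lie mostly between 0 and 20 reads, IPs (dark) mostly above 10, and gcy-18 is listed at 0 in both control IPs.

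The inputs gave very few reads per gene. The median over the 36 genes was 4.5 and 5.5 reads for control input and 2 and 1 for adr-2(-) input, where 7 and 13 genes were at 0. Among the IPs the medians were 224 and 97.5 reads in control and 296.5 and 107 in adr-2(-). In control, 8 genes had at least 10 reads in both IPs and under 3 in both inputs, and in adr-2(-) 17 genes did. Only gcy-1, gcy-2 and, in adr-2(-), gcy-14 were at 0 in both inputs of a strain. At 0 reads, the limit of 3 reads allows up to 9.02 and 7.90 units for control input and 19.2 and 26.7 for adr-2(-) input, and levels below these were not detectable at this depth.

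The difference in detection was smaller at matched depth. When each library was drawn down, by calculation, to the 2595322 reads of the shallowest, 23.7 of the 36 genes (23.2 and 24.1 in the individual libraries) were expected with at least 3 reads for control input, and 25.9 (23.6 to 28.1) for control IP. The ranges of those groups overlapped at this setting. In adr-2(-) the expected numbers were 13.3 (12 to 14.6) in the inputs and 29.6 (28.1 to 31.03) in the IPs, which did not overlap. As shares of the 36, the expected detection was 65.8% and 71.8% in control and 36.96% and 82.2% in adr-2(-). The share of protein-coding genes moved far less over the same groups, at 62.8%, 61.3%, 56.3% and 64.4%. With ribosomal RNA genes left out before depths were matched, 20.5, 25.8, 12.5 and 28.6 genes were expected in the same order of groups, and the control inputs (19.99 to 21.02) then no longer overlapped the control IPs (23.3 to 28.2).

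**Figure D2:**
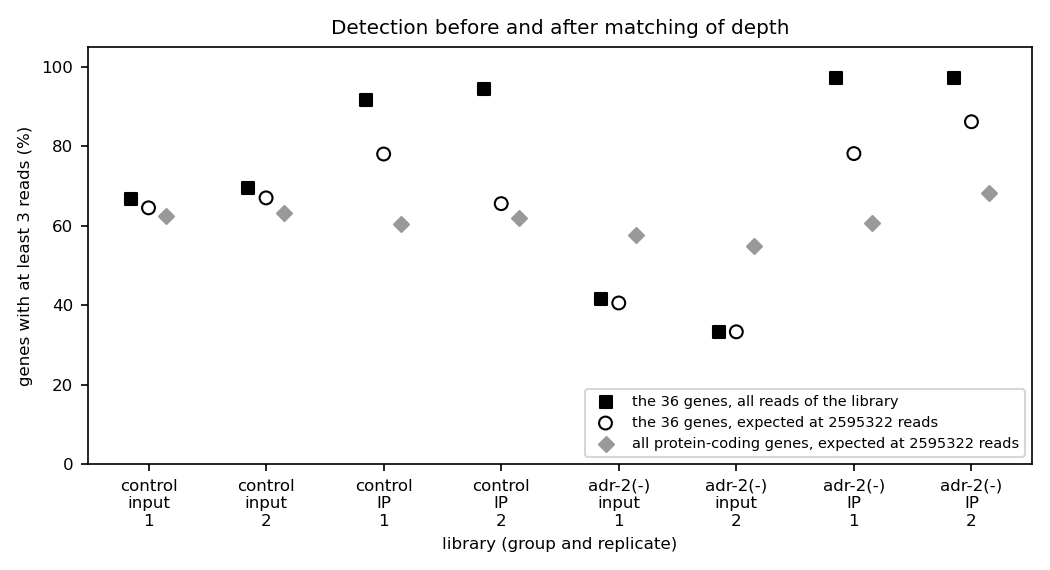
Percent of genes with at least 3 reads in each library, for the 36 genes with all reads (squares), the 36 genes expected at 2595322 reads (circles) and all protein-coding genes expected at that depth (diamonds). At matched depth the adr-2(-) inputs hold the fewest of the 36 genes and the adr-2(-) IPs the most, and the control IPs replicate 1 and 2 differ.

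The reads of the 36 genes together came to 193 RPM (reads per 1000000 recovered reads, 95% Wilson interval 177 to 209) and 206 (190 to 223) for control input, and to 433 (427 to 438) and 199 (195 to 203) for control IP. The second control IP was thus within the interval of the first control input, and only the first control IP was higher. In adr-2(-), the inputs held 52.2 (44.4 to 61.3) and 46.2 (38.7 to 55.3) RPM and the IPs 338 (334 to 342) and 537 (527 to 547). Both adr-2(-) IPs lay above both adr-2(-) inputs, and both adr-2(-) inputs lay below both control inputs. With all libraries scaled to the same total, the median of all genes moved too. It moved by log2 -1.26 between the inputs and 1.42 from input to IP in adr-2(-). Markers of neurons in general held 1038 and 1184 RPM in control inputs and 502 and 404 in adr-2(-) inputs. Those of the intestine overlapped (8791 and 11564, then 11725 and 10051). The part of this shift in the members' sums was not tested. The Wilson intervals cover counting error only, since copies made by PCR are not independent molecules. A single gene, gcy-28, held the most reads of any member in all 8 libraries, from 23.3% to 49.4% of them. Without it the sums were 97.6 and 117 RPM for control input, 219 and 102 for control IP, 39.1 and 35.4 for adr-2(-) input and 178 and 322 for adr-2(-) IP, in the same order.

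For tests, 28 of the 36 members had a mean of at least 10 units over the 8 libraries. Over the inputs alone 19 would have, so some passed through their IPs, and counts and medians over the 28 describe the tested genes only. The other 8 were gcy-1, gcy-2, gcy-3, gcy-4, gcy-13, gcy-14, gcy-20 and gcy-27, with means from 0.0812 to 7.59 units, 0 to 4 reads in any input and 0 to 108 reads in any IP. These are the listed values, and for gcy-1, in a row with a differing mean, the deposited mean was 105.9 units. The nearest genes inside the limit were gcy-17 (mean 10.7 units) and gcy-6 (10.8 units), and the nearest outside were gcy-20 (7.59 units) and gcy-14 (7.04 units). The test was limma on log2(value + 1), over all 13276 genes with such a mean, with Benjamini-Hochberg adjustment. The log2 changes below are on that scale, where a low gene's change can come out too small. Where an input library held 0 reads, the change can come out larger than the group means give. In bulk RNA, fewer cells of a type and less RNA per cell cannot be told apart.

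At the study's thresholds (adjusted p under 0.001 and a log2 change of at least 1), limma called none of the 28 genes in any of 5 comparisons. The background shares of all genes called were 1.31% for IP against input in control, 0.844% in adr-2(-), 1.37% for the ratio of those ratios, 1.3% for the strains compared in the IPs and 0% in the inputs. All 182 genes called in the ratio of ratios were in rows with a differing mean and at 0 in both control IPs. At an unadjusted p under 0.05, 13 of the 28 were higher in adr-2(-) IPs than inputs (background 22.6%), 3 were higher and 1 lower in control (8.47% and 9.99%), 3 were higher in the ratio of ratios (10.6%), 1 was higher in adr-2(-) among the IPs (2.17%) and 4 were lower in adr-2(-) among the inputs (18.4%).

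At an adjusted p under 0.05 with the same minimum change, 7 of the 28 were higher in adr-2(-) IPs than in inputs (daf-11, gcy-8, gcy-9, gcy-12, gcy-18, gcy-28 and tax-2), which is 25% against a background of 14.3% of all genes higher. None was lower, where the background was 10.4%. In control none was called, where the background was 0.535% higher and 2.84% lower, or 3.37% in either direction. The median log2 change of the 28 was 2.38 in adr-2(-) (all genes 0.23) and 0.96 in control (all genes 0.11), and 25 and 23 of the 28 changes were above 0. Without gcy-18 the medians were 2.09 and 0.99, and 6 genes were called in adr-2(-). Markers of neurons in general had medians of 2.15 in adr-2(-) and 1.03 in control, with 11 of 19 called higher and 1 called lower in adr-2(-). Those of other cell types had medians, in the same order, of 1.28 and 0.89 for glia, 0.93 and 0.94 for epidermis, 0.53 and 0.44 for muscle, 1.16 and -1.19 for the germline and -1.88 and -0.89 for the intestine. In adr-2(-), 1 of 9 glial, 2 of 8 epidermal, 3 of 9 muscle and 3 of 10 germline markers were called higher and 5 of 10 intestinal markers lower. The germline list holds 3 genes in rows with a differing mean. The part of these cell types in the members' values was not tested.

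Those calls rested on particular libraries. Without adr-2(-) IP replicate 1 none of the 28 was called higher in adr-2(-), where the share of all genes called higher was 4.39%. The number was 4 without adr-2(-) IP replicate 2 (9.10% of all genes), adr-2(-) input replicate 2 (5.36%), control input replicate 1 (8.31%) or control input replicate 2 (8.23%). It was 9 without adr-2(-) input replicate 1 (7.55%), and 9 and 10 without control IP replicate 1 and 2 (19.8% each). In control, leaving out IP replicate 2 gave 5 genes (daf-11, gcy-12, gcy-28, gcy-33 and gcy-8, with a background of 8.63% of all genes higher), whereas leaving out IP replicate 1 gave none. Control IP replicate 1 was above replicate 2 in 25 of the 28 genes, with a median log2 difference of 1.5, against 6823 of 13276 genes and 0.05 over all genes. Both IPs lay above both inputs in 11 of the 28 genes in control (background 26.1%) and in 19 in adr-2(-) (background 39.1%). These counts hold genes that passed the filter only through their IPs, for which the filter favoured the pattern. Among them were tax-4 (inputs of 0, 2.63, 6.40 and 0 units), gcy-7 (6.02, 7.90, 6.40 and 8.91) and tax-2 (input means of 9.97 and 4.46). Of these, tax-2 was also among the genes called in adr-2(-). The background shares come from the same filter, so the counts are a description only. Both IPs lay below both inputs in 2 genes in control, gcy-18 and gcy-11 (background 24.6%), and in none in adr-2(-) (background 30.7%).

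**Figure D3:**
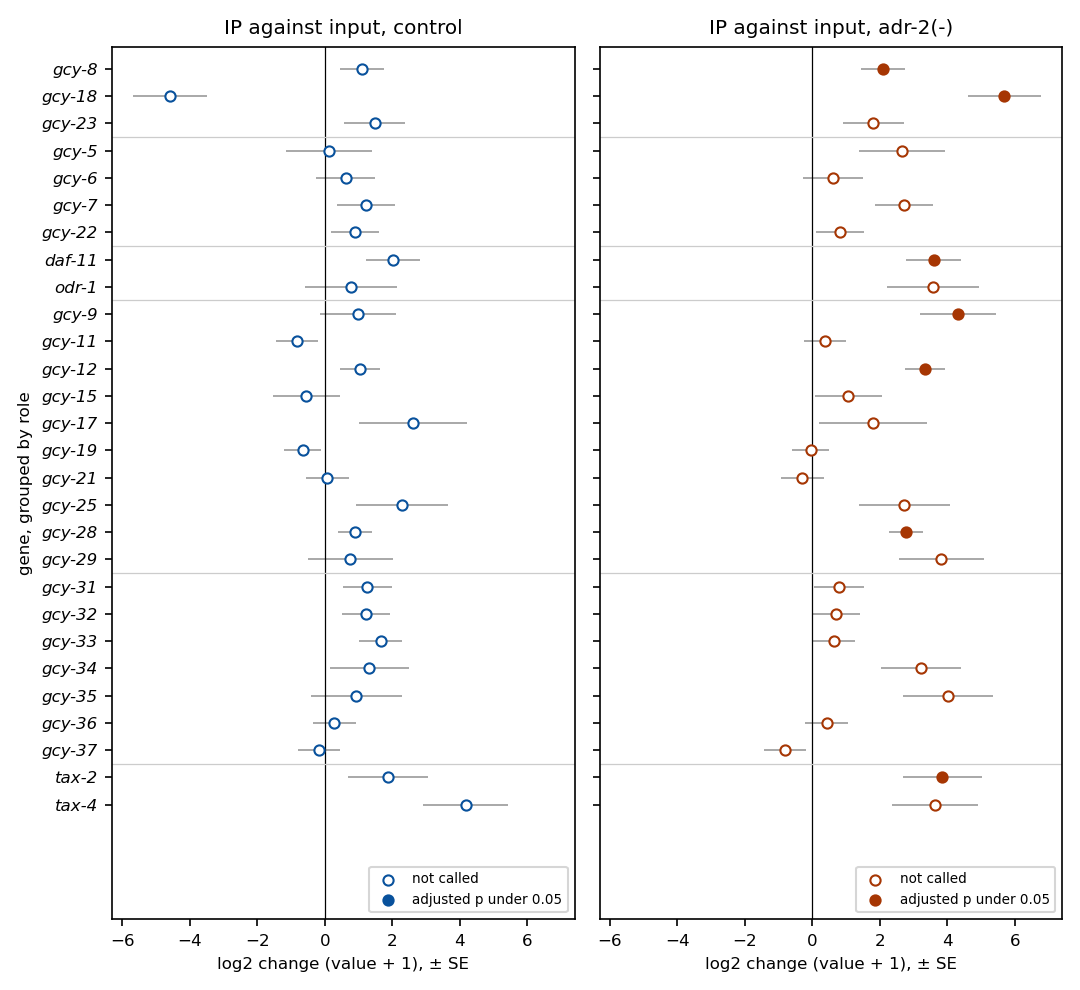
Log2 change of IP against input on the log2(value + 1) scale with its standard error (limma) for the 28 genes tested, in control and in adr-2(-), grouped by role in the same order. Filled points (adjusted p under 0.05) occur for 7 genes in adr-2(-) and for none in control, where gcy-18 is drawn from listed 0s.

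The thermosensory cyclases gcy-8, gcy-18 and gcy-23 are used by the AFD neurons, which sense temperature. Replicates 1 and 2 are given in that order here and below. The gene gcy-8 (chrIV:7928152-7933782, plus strand) had control inputs of 33.1 and 39.5 units, control IPs of 149 and 41.2, adr-2(-) inputs of 25.6 and 35.6, and adr-2(-) IPs of 119.2 and 147. All 4 IPs were thus above all 4 inputs, by little for control IP replicate 2. The log2 change of IP against input was 2.09 ± 0.65 (SE; limma adjusted p = 0.0479) in adr-2(-) and 1.10 ± 0.65 (limma adjusted p = 0.397) in control. Each adr-2(-) input held 4 reads of gcy-8, so its call rests on 8 input reads. The gene gcy-23 had control inputs of 12.03 and 47.4 units, control IPs of 162 and 29.02, adr-2(-) inputs of 25.6 and 44.5, and adr-2(-) IPs of 118.7 and 124. Its groups overlapped in control and not in adr-2(-), and neither change passed the test (log2 1.48 and 1.81, limma adjusted p = 0.411 and 0.177).

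The third AFD cyclase, gcy-18, was listed with control inputs of 33.1 and 15.8 units, control IPs of 0 and 0, adr-2(-) inputs of 6.40 and 0, and adr-2(-) IPs of 140 and 139. In the adr-2(-) IPs its level lay beside those of gcy-8 and gcy-23, per kilobase of exon at 37.4 units against 36.4 and 36.2. In the control IPs it was listed at 0 where those had 26.04 and 28.6 units per kilobase. It rose from input to IP in adr-2(-) (log2 5.69 ± 1.08, limma adjusted p = 0.00929), against inputs of 1 and 0 reads. Between strains it was the one member called at an adjusted p under 0.05 in the IPs (background 1.53%) and in the ratio of ratios (background of 1.93% higher, and 0.158% lower, where no member was). Both of those calls rest on the listed 0s.

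**Figure D4:**
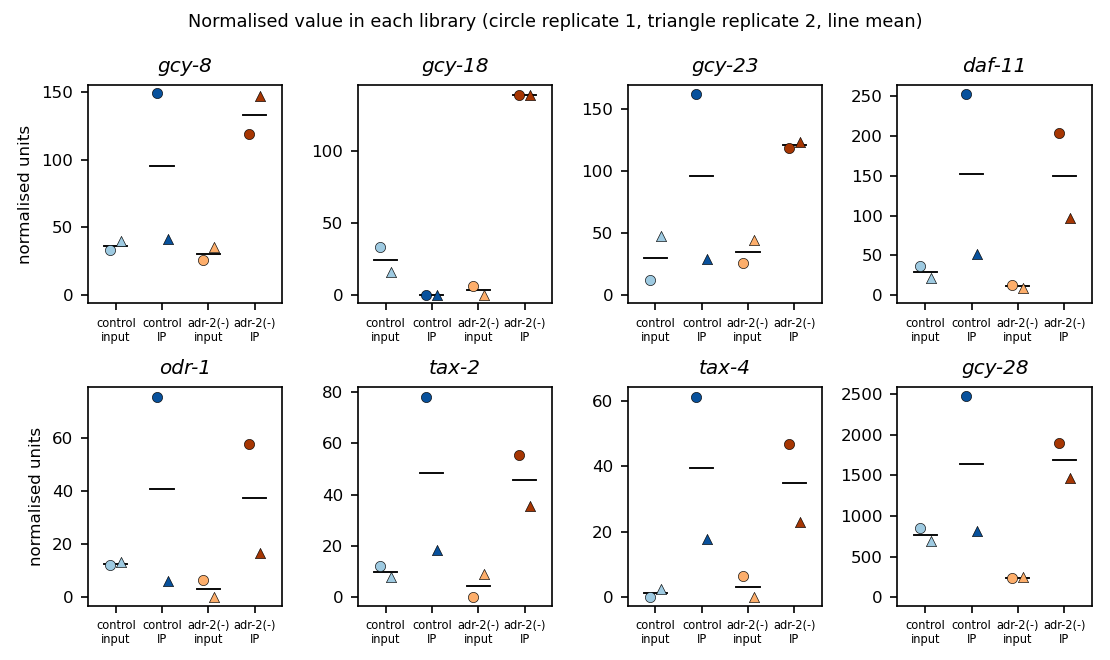
Normalised value (units, linear axes from 0, with a scale of its own for each gene) of 8 genes in each library, with replicate 1 as a circle, replicate 2 as a triangle and the group mean as a line. Control IP replicate 1 stands above replicate 2 for every gene drawn but gcy-18, which is listed at 0 in both.

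The taste cyclases of the ASE neurons, which sense salts, were often too low to test. Of the 9, 5 stayed under the filter and 4 were tested, and none was called in either strain. Among those 5, gcy-1 was low by its listed values only, since its deposited mean of 105.9 units is above the filter. The gene gcy-5, of the right ASE neuron, had control inputs of 9.02 and 15.8 units, control IPs of 13.5 and 12.9, adr-2(-) inputs of 12.8 and 0, and adr-2(-) IPs of 11.9 and 41.5. The gene gcy-6, of the left ASE neuron, had 6.02 and 10.5 units, 20.3 and 7.95, 6.40 and 8.91, and 18.1 and 8.11 in the same order of groups. For both genes IPs and inputs overlapped in each strain. The left ASE gene gcy-7 had control inputs of 6.02 and 7.90 units, control IPs of 29.98 and 9.98, adr-2(-) inputs of 6.40 and 8.91, and adr-2(-) IPs of 31.7 and 96.3, with every IP above every input. Its log2 changes were 1.22 ± 0.86 in control and 2.72 ± 0.86 in adr-2(-) (limma adjusted p = 0.475 and 0.0505). The gene gcy-22, by listed values the most abundant ASE cyclase in every group, had control inputs of 39.1 and 28.98 units, control IPs of 128 and 31.8, adr-2(-) inputs of 64.03 and 35.6, and adr-2(-) IPs of 98.3 and 73.3. Its deposited mean of 62.4 units was below that of gcy-1.

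The ASE genes share a sequence that the choice by name did not use. The zinc finger protein CHE-1 defines ASE neurons and binds a motif with the core GAAGCC or GAAACC. In the 300 bases before the coding start, either core on either strand occurred in 9 of 9 ASE genes, in 2 of 3 AFD genes, in 1 of the 2 genes daf-11 and odr-1, in 3 of 12 other receptor-type genes, in 1 of 7 soluble cyclase genes and in none of the 2 channel genes. Among all protein-coding genes 18.8% held it, and a match is a description of the letters, not of binding. The sites below are shown because the whole ASE group holds the core while differing widely in reads. They are examples, with 1 site for each gene shown. The sites of gcy-14 and gcy-20 and the second sites of gcy-1, gcy-3, gcy-5 and gcy-22 are left out. Outside the ASE group, gcy-19 also holds more than 1 site. Capitals mark the core or its reverse complement (GGCTTC or GGTTTC), and sequence and coordinates are those of the RefSeq WBcel235 (ce11) assembly, on the strand of the gene.
gcy-1 (chrII:9517053-9517076, minus strand): aagaaaaacGAAGCCactttttag
gcy-3 (chrII:9507400-9507423, minus strand): tctcaactaGAAGCCgtgttttca
gcy-4 (chrII:10308879-10308902, minus strand): agcttaaaaGAAGCCaatcatcta
gcy-5 (chrII:10316366-10316389, minus strand): attaagcaaGAAGCCcccaaatgc
gcy-6 (chrV:10314208-10314231, minus strand): ttgttcgtcGAAGCCcttcaacaa
gcy-7 (chrV:8387233-8387256, plus strand): taaaaataaGGTTTCacggattag
gcy-22 (chrV:20825147-20825170, minus strand): ccgttttttGGCTTCccacaccta

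In the pooled adr-2(-) IPs these genes ranged from 18 reads (gcy-3) and 31 (gcy-1) to 507 (gcy-7) and 877 (gcy-22). The reads of gcy-1 are as listed, in a row with a differing mean. The neighbours gcy-1, gcy-2 and gcy-3 lie side by side on chromosome II, and reads with several locations were left out by the authors, so shared sequence lowers a count. Of the exonic stretches of 100 bases, 16.7% in gcy-1 and 16.6% in gcy-2 occurred elsewhere in the genome, in each other, with an exact shared run of 421 bases. The other pair with such stretches was gcy-15 (9.67%) and gcy-21 (9.25%). In the other 32 members none was found.

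The receptor cyclases odr-1 and daf-11 act in olfactory neurons, and daf-11 also in the dauer decision. The gene daf-11 (chrV:11718102-11726071, minus strand) had control inputs of 36.1 and 21.1 units, control IPs of 253 and 51.8, adr-2(-) inputs of 12.8 and 8.91, and adr-2(-) IPs of 204 and 96.7. IPs and inputs did not overlap in either strain. Its change passed the test in adr-2(-) (log2 3.6 ± 0.81, limma adjusted p = 0.0158) and not in control (log2 2.02 ± 0.81, limma adjusted p = 0.235), and the difference of the changes did not pass either (log2 1.58 ± 1.14, limma adjusted p = 0.505). The gene odr-1 had control inputs of 12.03 and 13.2 units, control IPs of 75.7 and 6.10, adr-2(-) inputs of 6.40 and 0, and adr-2(-) IPs of 57.8 and 16.9. Its control IPs fell on either side of its control inputs, and its log2 changes of 0.78 ± 1.37 and 3.58 ± 1.37 were not called (limma adjusted p = 0.803 and 0.0919).

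Among the other receptor-type cyclases, gcy-28, which acts in many neurons and in olfactory learning, was by far the most abundant member. It had control inputs of 848 and 690 units, control IPs of 2478 and 813, adr-2(-) inputs of 237 and 249, and adr-2(-) IPs of 1903 and 1464. The adr-2(-) inputs were well under the control inputs, and control IP replicate 2 lay between the control inputs. Its adr-2(-) inputs held 37 and 28 reads, the most input reads behind any called gene of the family in that strain. The change in adr-2(-) was log2 2.77 ± 0.50 (limma adjusted p = 0.00744), in control log2 0.89 ± 0.50 (limma adjusted p = 0.371), and between the inputs -1.65 ± 0.50 (limma adjusted p = 0.0584).

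The gene gcy-12, which acts in sensory neurons in the setting of body size, followed the same pattern. It had control inputs of 123 and 179 units, control IPs of 573 and 165, adr-2(-) inputs of 32.02 and 44.5, and adr-2(-) IPs of 408 and 373. Its adr-2(-) change was log2 3.33 ± 0.59 (limma adjusted p = 0.00695), against inputs of 5 reads each, and its inputs differed by log2 -1.95 ± 0.59 (limma adjusted p = 0.0585). The carbon dioxide receptor gcy-9, of the BAG neurons, had control inputs of 27.1 and 21.1 units, control IPs of 104.9 and 21.99, adr-2(-) inputs of 6.40 and 0, and adr-2(-) IPs of 80.6 and 35.4. It was called in adr-2(-) at log2 4.32 ± 1.12 (limma adjusted p = 0.0261), against inputs of 1 and 0 reads.

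A further subset of the receptor-type cyclases was called in neither strain. The gene gcy-11 had control inputs of 123 and 111 units, control IPs of 55.6 and 77.3, adr-2(-) inputs of 96.1 and 89.1, and adr-2(-) IPs of 62.2 and 231. It was thus lower in both control IPs than in both inputs, and its adr-2(-) IPs fell on either side (log2 -0.82 ± 0.62 and 0.37 ± 0.62, limma adjusted p = 0.50 and 0.687). The gene gcy-19 had control inputs of 81.2 and 116 units, control IPs of 82.0 and 45.8, adr-2(-) inputs of 64.03 and 125, and adr-2(-) IPs of 75.4 and 99.3, with IPs and inputs overlapping in each strain. The gene gcy-21, of the ASG neurons, had 33.1 and 36.9 units, 27.3 and 49.7, 51.2 and 80.2, and 32.3 and 84.0 in the same order, also overlapping in both strains. Its partner in shared sequence, gcy-15, had control inputs of 24.1 and 13.2 units, control IPs of 19.3 and 7.21, adr-2(-) inputs of 19.2 and 17.8, and adr-2(-) IPs of 14.4 and 108, so a single library carried its high value.

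The last 3 tested receptor-type genes were low. The gene gcy-17 had control inputs of 0 and 5.27 units, control IPs of 33.4 and 5.91, adr-2(-) inputs of 12.8 and 0, and adr-2(-) IPs of 21.4 and 6.49. The gene gcy-25, expressed in the oxygen-sensing URX neurons, had 3.01 and 2.63 units, 30.5 and 9.98, 0 and 17.8, and 25.4 and 30.2 in the same order. The gene gcy-29 had 18.1 and 5.27 units, 43.3 and 6.65, 6.40 and 0, and 44.0 and 31.8. None of these was called, and in inputs of 0 to 6 reads their IP to input changes had standard errors of 1.3 to 1.6 on the log2 scale.

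The soluble cyclases had the lowest median log2 change of the roles in adr-2(-), 0.72 over 7 genes (1.24 in control), but their changes there ran from -0.80 to 4.02. None was called in either strain. GCY-35 and GCY-36 act in URX neurons when oxygen rises. The gene gcy-35 had control inputs of 39.1 and 26.4 units, control IPs of 106 and 36.8, adr-2(-) inputs of 25.6 and 0, and adr-2(-) IPs of 74.5 and 91.5. Its log2 change of 4.02 ± 1.34 in adr-2(-), against inputs of 4 and 0 reads, was the third highest of the 28 and did not pass the test (limma adjusted p = 0.0596). The gene gcy-36 had 60.2 and 28.98 units, 79.5 and 32.5, 51.2 and 35.6, and 65.1 and 51.9. For gcy-36 IPs and inputs overlapped in control and stood just apart in adr-2(-). GCY-31 and GCY-33 act in BAG neurons when oxygen falls. The gene gcy-31 had 12.03 and 18.4 units, 60.9 and 22.6, 25.6 and 17.8, and 55.3 and 25.95, in the same order of groups. The gene gcy-33 had 24.1 and 23.7 units, 127 and 47.5, 38.4 and 62.3, and 101 and 58.4, so it was apart in control (log2 1.66 ± 0.63, limma adjusted p = 0.215) and overlapped in adr-2(-) (log2 0.64 ± 0.63, limma adjusted p = 0.485).

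The remaining soluble cyclases are also genes of oxygen-sensing neurons. The gene gcy-32 had control inputs of 15.04 and 10.5 units, control IPs of 52.7 and 18.1, adr-2(-) inputs of 25.6 and 17.8, and adr-2(-) IPs of 38.2 and 33.4. The gene gcy-34 had 15.04 and 15.8 units, 61.9 and 25.9, 12.8 and 0, and 41.2 and 27.6, and its IPs and inputs were apart in both strains (log2 3.22 ± 1.18 in adr-2(-), limma adjusted p = 0.0794). The gene gcy-37 had 45.1 and 52.7 units, 59.7 and 30.9, 44.8 and 107, and 45.6 and 34.1, and it was the tested member with the lowest change in adr-2(-) (log2 -0.80 ± 0.62, limma adjusted p = 0.367). Its adr-2(-) inputs held 7 and 12 reads.

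The channel subunits had 0 to 4 reads in each input library and 71 to 368 in each of the deeper IPs. With 4 and 3 reads, tax-2 was detected in the control inputs. Relative to depth, tax-2 had 1.35 and 1.02 RPM in the control inputs and 6.73 and 2.19 in the control IPs. In adr-2(-) it had 0 and 0.385 RPM in the inputs and 4.65 and 5.25 in the IPs. The gene tax-4 (chrIII:9181546-9185888, plus strand) had control inputs of 0 and 2.63 units, control IPs of 61.2 and 17.9, adr-2(-) inputs of 6.40 and 0, and adr-2(-) IPs of 46.8 and 23.03. Its 4 input libraries held 0, 1, 1 and 0 reads and its IPs 253, 97, 310 and 71. Its log2 changes were 4.17 ± 1.3 in control, the highest of any tested member there, and 3.64 ± 1.3 in adr-2(-), neither of which passed the test (limma adjusted p = 0.134 and 0.0680). The gene tax-2 had control inputs of 12.03 and 7.90 units, control IPs of 78.1 and 18.5, adr-2(-) inputs of 0 and 8.91, and adr-2(-) IPs of 55.6 and 35.7. It was called in adr-2(-) (log2 3.86 ± 1.18, limma adjusted p = 0.0452) against inputs of 0 and 1 reads, and not in control (log2 1.87 ± 1.18, limma adjusted p = 0.426).

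Per kilobase of exon, gcy-28 led in all 4 groups, at 122 ± 17.8 units (SD, n = 2) for control input, 262 ± 187 for control IP, 38.7 ± 1.4 for adr-2(-) input and 268 ± 49.4 for adr-2(-) IP. In the control inputs the next genes were gcy-11 (32.7 ± 2.5), gcy-19 (26.5 ± 6.59) and gcy-12 (25.3 ± 6.6 units per kilobase). Each differed from the next by less than the larger of their SDs, while gcy-11 and gcy-12 differed by more than either of theirs. In the IPs gcy-12 came second, at 61.7 ± 48.2 in control and 65.3 ± 4.2 in adr-2(-). Behind it in adr-2(-) stood gcy-11 (40.9 ± 33.2), gcy-18 (37.4 ± 0.0114), gcy-8 (36.4 ± 5.37), gcy-23 (36.2 ± 1.03) and daf-11 (35.98 ± 18.2 units per kilobase), each differing from the next by less than the larger of their SDs, while gcy-18 and gcy-23 differed by more than either of theirs.

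Between strains, none of the 28 genes was called in the inputs at an adjusted p under 0.05 (background of 5.03% higher and 9.36% lower), though other settings called up to 6 of them lower, and their median log2 difference of -0.09 was close to that of all genes, 0.01. The lowest differences were those of gcy-9 (log2 -3.19 ± 1.12, limma adjusted p = 0.0885) and gcy-18 (log2 -3.14 ± 1.08, limma adjusted p = 0.0856). In the IPs the median was 0.37 (all genes -0.04), and outside gcy-18 the differences ran from -0.25 to 1.66. These depended on which replicates were set side by side, since adr-2(-) was above control in 28 of 28 genes among IPs numbered 2 (median 1.01) and in 5 of 28 among IPs numbered 1 (median -0.35). The ratio of ratios had a median of 1.10 (all genes 0.02), or 1.00 without gcy-18, with which no other gene was called. Each strain's IP to input values enter that ratio, so it is no separate evidence of them. The marker lists also differed between the inputs. Their medians were log2 -0.28 for neurons in general, -0.13 for glia, -0.45 for epidermis, 0.64 for muscle, 1.21 for the intestine and -2.75 for the germline. In adr-2(-) inputs, 2 of 19 neuronal, 1 of 9 glial, 2 of 8 epidermal and 9 of 10 germline markers were called lower, and 1 of 9 muscle markers higher. The part of this in the members' changes was not tested.

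Other genes of the cGMP pathway were examined as a list. Of 38 listed genes for kinases, phosphodiesterases, G proteins and regulators of these neurons, 35 were tested, and 15 were higher in adr-2(-) IPs than in inputs at an adjusted p under 0.05 (background 14.3%) and none was lower. The other 20 did not pass, and 7 of the 35 changes were below 0, the lowest that of the transcription factor gene ceh-23 (log2 -2.13 ± 1.01). The median log2 change was 1.56 there and 0.91 in control. The cGMP-dependent kinase egl-4 had control inputs of 2518 and 2435 units, control IPs of 4124 and 1584, adr-2(-) inputs of 544 and 552, and adr-2(-) IPs of 3739 and 3041 (log2 2.62 ± 0.44 in adr-2(-), limma adjusted p = 0.0060, and 0.05 ± 0.44 in control). The other genes called were the kinases pkg-2 (2.81) and cmk-1 (2.32), the phosphodiesterases pde-2 (2.29), pde-3 (3.05) and pde-6 (2.18), the G protein alpha subunits odr-3 (2.94), gpa-2 (2.90) and gpa-3 (3.11), the channel gene osm-9 (3.67), the regulator eat-16 (1.10), the transcription factors ceh-14 (2.78), die-1 (1.92) and egl-13 (3.75), and calcineurin, tax-6 (4.23), each given as the log2 change in adr-2(-). Between strains, 5 of the 35 were called lower in the adr-2(-) inputs (background 9.36%) and none higher (5.03%). Among the IPs only tax-6 was called, higher in adr-2(-) (background 1.53%). The median difference was log2 -0.76 in the inputs and 0.26 in the IPs. For egl-4 it was -2.17 ± 0.44 in the inputs (limma adjusted p = 0.018) and 0.40 ± 0.44 in the IPs.

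In control only eat-16 was higher in the IPs than in the inputs (log2 1.70 ± 0.32, limma adjusted p = 0.0258). The calcineurin gene tax-6 was the only one lower there, and it is in a row with a differing mean and listed at 0 in both control IPs. Genes of cilia, the part of the sensory neuron where these cyclases sit, had medians of 0.92 in control and 0.29 in adr-2(-), with 1 of 27 called higher and 2 called lower in adr-2(-), so their median fell below that of the 28 members in that strain. Between strains, the median of these cilia genes was log2 0.81 in the inputs, where 6 of 27 were called higher in adr-2(-) (background 5.03%). In the IPs it was 0.08, and none was called.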

How the data were processed

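RIP-seq was analysed from IP and input libraries of both strains. Per the methods, the authors selected poly(A) RNA, aligned stranded single-end reads to ce11 (WS275) with STAR (version 2.7.8a in the processing notes), discarded reads with several locations and counted the sense strand of each gene with featureCounts. The signal deposited by the authors is the gene count divided by a DESeq2 size factor, rounded. The authors also deposited a mean, a log2 ratio of ratios with its error, a test score and p-values. These comparison columns were not used, except that the mean was checked against the values (within 0.02 units or 0.1%). All 8 per-sample columns were used.

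Whole reads were recovered by division by the value of 1 read. Of values above 0 and up to 1000 reads, 100.0% came out whole in matched rows and 97.3% in rows with a differing mean. Samples were grouped by title. Replicates are separate biological samples per the labels. limma 3.58.1 (R 4.3.3; lmFit, eBayes with trend) was fitted to log2(value + 1) with 4 group means over 13276 genes with a mean of at least 10 units. Detection counted at least 3 reads in both replicates, and expected detection at matched depth was hypergeometric. Shares have 95% Wilson intervals of at most 0.0606 percentage points for the ribosomal share. Edge counts, sequences and lists used Python 3.11.15, pandas 2.3.3, scipy 1.17.1, Ensembl annotation and the RefSeq genome (WBcel235). The scripts were tested on simulated data.

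Alternatives were a replicate block, pseudocounts of 0.1 and 10, no filter or a mean of at least 50, other scalings, edgeR 4.0.16 and DESeq2 1.42.0 on recovered reads, and leaving out each library. Replicate numbers were checked for pairing: deviations from group means correlated at 0.46 between the IPs of both strains and at -0.01 to 0.04 in the other 5 pairs of groups. IPs of the same number thus shared part of their spread. The main fit did not pair samples by number, so this part stayed in its error. Members and lists were chosen with earlier results of these data known. Named were all members with a mean of at least 10 units or a call at 0.05, the AFD cyclases, daf-11, odr-1, tax-2 and tax-4, and the called genes of the cGMP pathway list. The lists held 3 symbols that were not matched.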

Additional observations from a re-analysis of the deposited data

Results flagged for a closer look

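The gene gcy-18 was the only member whose IP to input change differed between strains by the test of the difference itself, with all libraries and the deposited scaling. The log2 ratio of ratios was 10.27 ± 1.53 (SE; limma adjusted p = 0.00813, over all 13276 genes), and the difference between the IPs was 7.13 ± 1.08 (limma adjusted p = 0.00977). Both rest on control IPs listed at 0, in a row whose deposited mean (68.3 units) is above the mean of its listed values (41.8 units). Among 6859 genes with at least 100 units in both adr-2(-) IPs, 177 had 0 in each control IP, and all 177 stood in such rows. The fitted change is therefore no bound on a fold. After scaling all libraries to the same total, 3 members were called at 0.05 (gcy-12, gcy-18 and gcy-28), beside 13.2% of all genes called higher. No member was called in DESeq2 (1.97% of all genes higher) or with no filter (0.812%). The gcy-18 call was kept in 12 alternatives and lost in 5, these among them. Over the 16 alternatives for which a range was taken, the log2 ratio of ratios ranged from 5.28 to 15.28, with adjusted p from 0.000252 to 0.0631.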

How the results depend on the processing

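With the main settings none of the 28 members was called at the 0.001 threshold. Some alternatives took members under it, among them gcy-18 in the ratio of ratios and gcy-28 for IP against input in adr-2(-). The counts that follow are at an adjusted p under 0.05 unless stated. The ratio of ratios gave 1 member (gcy-18) with the main settings and in edgeR (1.19% of all genes higher). It gave 3 with all libraries scaled to the same total (13.2%) and 0 in DESeq2 (1.97%). The comparison of IPs gave 1 (gcy-18) with the main settings. So did the same total (1.51% of all genes higher), edgeR (1.07%) and DESeq2 (1.13%). For IP against input in control, the main settings called none. There gcy-18 was called lower in DESeq2 (3.86% of all genes lower) and edgeR (1.98%). It was also called lower with the same total (2.31%) and with the replicate block by number (3.39%). For IP against input in adr-2(-), the main settings called 7 members higher (14.3% of all genes). At 0.05 the count of 7 became 4 in edgeR (7.96% of all genes higher), 5 in DESeq2 (9.83%), 5 without rows of differing mean (12.7%) and 16 with the same total (36.8%), and in control DESeq2 called 2 higher (daf-11 and tax-4, 3.37%). The replicate block by number or within strain gave 0 members at 0.001 wherever it could be fitted, and 10 and 8 at 0.05 in adr-2(-) (15.8% and 12.96% of all genes). Between inputs, where none was called at 0.05, 6 were lower with the same total (daf-11, gcy-9, gcy-12, gcy-18, gcy-28 and gcy-35, 31.97% of all genes), 2 with the block by number (gcy-9 and gcy-28, 9.91%), 2 without control IP replicate 1 or 2 (gcy-12 and gcy-28, 15.6% and 15.4%), 2 without adr-2(-) input replicate 1 (gcy-18 and gcy-35, 2.87%) and 1 in DESeq2 (gcy-28, 6.28%). Detection in the control inputs was 10 genes at a minimum of 10 reads, and in the adr-2(-) inputs 19 at 1 read and 3 at 10 reads. The number expected in the control IPs at matched depth was 15.03 at 10 reads. Without control IP replicate 1 the change in control turned to -0.11 for gcy-9 and -0.94 for odr-1, and without control IP replicate 2 it was 2.09 and 2.50. Over single members and settings, 335 results kept direction and side of the threshold, 46 lost and 18 gained a call, and 2 turned. Scaling to the same total shifted the median of all genes to -1.26 between inputs and 1.42 for IP against input in adr-2(-), and the members' excess over it there was 1.87 against 2.14. The inputs limit all of this, since 3 reads in an adr-2(-) input are 19.2 or 26.7 units, and the causes of these changes were not tested.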
